A study of Mus musculus with 6 samples.

Results

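Plakoglobin and β-catenin occupancy of promoters was compared within 3 paired experiments in C57BL/6J mouse keratinocytes, the cells that build the epidermis. The cells had been grown to confluency and then kept in high-calcium medium for 4 days, which starts terminal differentiation. All groups shared this strain and treatment. They also shared cross-linking with 2 mM DSG, a second cross-linker, and 1% formaldehyde, and fragments of 500 bp. There were 3 arrays with a Plakoglobin antibody and 3 arrays with a β-catenin antibody, numbered 1 to 3 for each. Each array set ChIP DNA (Cy5) against total input DNA (Cy3) from these cells. The log2 ratio of each promoter was centred on its array's median, and the β-catenin value was subtracted from the Plakoglobin value of the same experiment number. Of 26200 promoter sequences with a value, 2767 were higher with Plakoglobin in all 3 differences (10.6%), 3212 were lower in all 3 (12.3%), and 20221 did not have the same sign in all 3. Both sets together hold 5979 promoters, 22.8% of the total. Leaving aside promoters without a sign in some experiment, each mixed pattern of signs was about as common as either set. The mixed patterns ranged from 11.1% (lower, higher and higher in experiments 1 to 3) to 14.9% (higher, lower and lower) of all promoters. A shared sign alone therefore does not show that the experiments agreed at a promoter. Without centring the balance between higher and lower turned, with 3753 higher and 2067 lower. Below, "higher" and "lower" always refer to the Plakoglobin value relative to β-catenin. A lower value can therefore reflect more recovery with the β-catenin antibody or less with the Plakoglobin antibody. No mock antibody and no cells lacking either protein were analysed here. Because these ratios do not measure expression, the labelled cell type could not be checked against its marker genes.

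Plakoglobin, also called γ-catenin and encoded by Jup, and β-catenin, encoded by Ctnnb1, are related armadillo-repeat proteins. Both bind the tails of classical cadherins at adherens junctions, and Plakoglobin is also a core part of desmosomes, the junctions that hold epidermal cells together. β-catenin is the transcriptional effector of canonical Wnt signalling: it enters the nucleus and reaches DNA through TCF/LEF factors. Plakoglobin can bind TCF/LEF factors too, and in keratinocytes it has been linked to repression of Myc during differentiation.

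The promoters of 7 genes that led the higher or the lower set are shown, because each lies at the extreme of its set and its RefSeq strand and chromosome matched those in the deposited peak lists. They are RefSeq windows of build GRCm38.p6, from 250 bases before to 50 bases after the annotated start, written 5′ to 3′ on the gene's strand. No source used here names the build of the array, so these windows are annotated promoters of the genes and not probe sequences. Capitals mark matches to the TCF/LEF letters CTTTGNN on either strand, where each N is A or T, and 16.9% of 27025 such windows hold at least 1 match. Pramel39, Banf2, Isy1 and Zfp979 were among the leading higher genes, and Clca2, Yme1l1 and Apon were among the leading lower genes. Single matches lie in the windows of Pramel39, Zfp979 and Clca2, and none lies in the other 4 windows.
Pramel39 (chr5:94306747-94307046, minus strand): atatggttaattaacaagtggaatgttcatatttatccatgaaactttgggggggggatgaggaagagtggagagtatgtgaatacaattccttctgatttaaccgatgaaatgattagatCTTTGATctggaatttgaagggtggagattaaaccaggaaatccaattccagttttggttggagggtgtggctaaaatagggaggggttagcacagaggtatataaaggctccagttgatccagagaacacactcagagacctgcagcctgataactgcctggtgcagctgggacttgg
Banf2 (chr2:144032852-144033151, plus strand): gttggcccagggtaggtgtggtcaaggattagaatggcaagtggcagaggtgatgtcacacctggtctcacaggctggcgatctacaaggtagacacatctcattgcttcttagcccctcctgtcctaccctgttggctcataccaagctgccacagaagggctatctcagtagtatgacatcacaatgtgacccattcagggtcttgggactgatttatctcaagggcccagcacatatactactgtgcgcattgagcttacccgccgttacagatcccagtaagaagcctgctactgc
Isy1 (chr6:87838710-87839009, minus strand): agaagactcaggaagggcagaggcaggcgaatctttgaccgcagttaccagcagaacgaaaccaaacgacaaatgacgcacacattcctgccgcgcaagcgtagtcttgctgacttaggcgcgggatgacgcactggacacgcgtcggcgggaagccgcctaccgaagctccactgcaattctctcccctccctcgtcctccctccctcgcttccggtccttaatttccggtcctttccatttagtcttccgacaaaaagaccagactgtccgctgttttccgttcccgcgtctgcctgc
Zfp979 (chr4:147642459-147642758, minus strand): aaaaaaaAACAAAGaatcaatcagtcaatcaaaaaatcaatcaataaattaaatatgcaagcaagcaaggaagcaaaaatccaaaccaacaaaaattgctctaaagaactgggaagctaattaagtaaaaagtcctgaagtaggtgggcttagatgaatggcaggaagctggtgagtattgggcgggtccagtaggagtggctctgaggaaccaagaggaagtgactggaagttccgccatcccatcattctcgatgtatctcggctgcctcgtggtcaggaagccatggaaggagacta
Clca2 (chr3:145099057-145099356, minus strand): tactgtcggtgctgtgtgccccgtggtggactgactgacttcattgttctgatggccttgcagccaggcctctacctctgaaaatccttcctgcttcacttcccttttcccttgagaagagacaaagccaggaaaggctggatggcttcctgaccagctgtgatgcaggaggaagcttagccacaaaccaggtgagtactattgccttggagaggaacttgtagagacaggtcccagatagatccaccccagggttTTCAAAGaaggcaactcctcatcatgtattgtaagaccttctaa
Yme1l1 (chr2:23156255-23156554, plus strand): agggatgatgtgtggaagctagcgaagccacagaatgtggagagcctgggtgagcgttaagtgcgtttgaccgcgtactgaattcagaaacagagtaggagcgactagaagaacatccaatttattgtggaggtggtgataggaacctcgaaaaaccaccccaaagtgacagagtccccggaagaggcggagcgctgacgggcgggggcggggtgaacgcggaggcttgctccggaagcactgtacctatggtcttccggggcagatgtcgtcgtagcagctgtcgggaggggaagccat
Apon (chr10:128253881-128254180, plus strand): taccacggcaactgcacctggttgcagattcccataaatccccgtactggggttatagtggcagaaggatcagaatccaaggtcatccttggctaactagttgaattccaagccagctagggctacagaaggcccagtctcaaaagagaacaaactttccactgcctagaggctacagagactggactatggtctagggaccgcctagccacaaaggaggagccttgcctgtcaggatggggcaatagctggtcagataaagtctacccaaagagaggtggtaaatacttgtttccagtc

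The 3 experiments shared few promoters with a sizeable difference, and those they shared were mostly higher with Plakoglobin. At least 0.5 higher in each of the 3 differences were 118 promoters (0.45% of all), and at least 0.5 lower in each were 5 (0.0191%). At 0.25 the counts were 300 higher (1.15%) and 126 lower (0.481%), and at 1 they were 45 higher (0.172%) and 0 lower. The promoters that only just kept their sign had differences near 0. The last promoter inside the higher set was an unnamed sequence with 0.12, 0.001 and 0.04 in experiments 1 to 3, and the first outside, also unnamed, had 0.35, 0.08 and -0.001. On the lower side, Dars, a transfer RNA synthetase gene, was just inside with -0.04, -0.85 and -0.001, and Bcs1l, a respiratory chain assembly gene, was just outside with 0.001, -0.75 and -0.20. Over all promoters the differences of 2 experiments had almost no rank correlation (Spearman's rho -0.06 between experiments 1 and 2, 0.01 between 1 and 3, and -0.03 between 2 and 3, over 26200 promoters, which are not independent replicates).

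**Figure D1:**
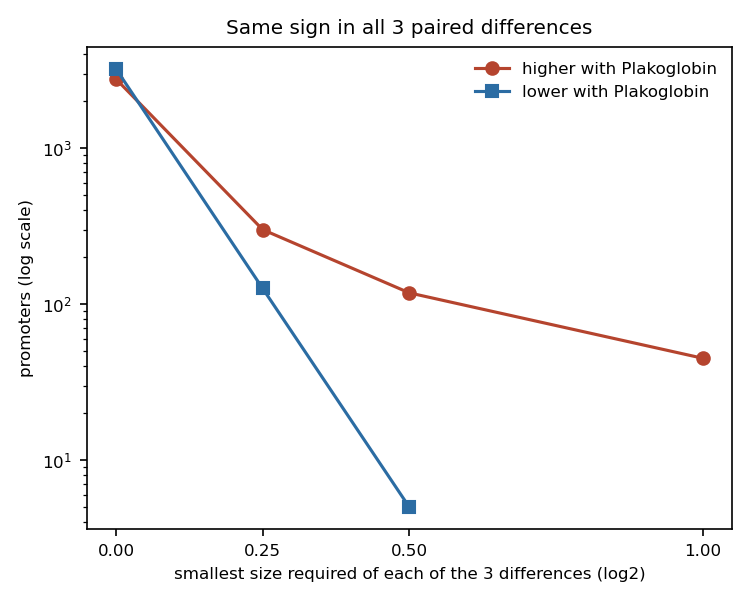
The number of promoters with the same sign in all 3 paired differences (vertical, log scale) is plotted against the size that each of the 3 differences had to reach (horizontal, log2 units), for promoters higher (circles) and lower (squares) with Plakoglobin. The lower set starts larger, at 3212 against 2767, and drops to 5 against 118 at a size of 0.5; it has no promoter at a size of 1.

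Array spread differed between antibodies and experiments. For Plakoglobin the SD of the centred log2 ratios was 0.68, 0.75 and 0.69 in experiments 1 to 3, and for β-catenin it was 0.33, 0.55 and 0.72. In experiment 1, 3445 promoters were at least 0.5 higher and 557 at least 0.5 lower. Experiment 2 gave 5338 and 3914, and experiment 3 gave 2078 and 2457. The third β-catenin array thus was as wide as the Plakoglobin arrays, and experiment 3 had more large lower than large higher differences. In limma's paired fit over all 26200 promoters, 0 passed a Benjamini-Hochberg adjusted p of 0.05 in either direction (0% each). The lowest adjusted p was 0.89. Leaving out experiment 3 let 37 promoters pass, all higher, while 1 passed without experiment 1 and 2 without experiment 2. At an unadjusted p under 0.05 there were 186 higher (0.71%) and 121 lower (0.462%) promoters, against 1310 that this threshold alone gives on average, and 303 of them had the same sign in all 3 experiments. A design of 3 pairs cannot give a two-sided exact sign-flip p below 0.25. With a lowest adjusted p of 0.89 in limma's paired fit to all 3 experiments, no named gene below passed that test. Every difference is given as a measurement, for some genes with its standard error.

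Among the higher promoters, the 15 leading genes came from multi-copy families of the germ line and early embryo and from unrelated single genes. The measure of lead was the smallest of the 3 differences. Of these genes, Nlrp4e (an oocyte-expressed gene of the NLR family), Pramel39 (of the PRAME-like family), Xmr and Gm4836 (of the X-linked Xlr family of meiotic genes) and Zscan4c (expressed in early embryos) belong to the germ-line or embryonic group. Hnrnpf, Gpatch1 and Isy1 encode splicing or RNA-binding proteins, although splicing and RNA-binding genes as a group had 14 of 97 promoters higher (14.4%) and 10 lower (10.3%), near the background shares. That group evened out at 11 of each with the median over probes and turned to 14 higher and 15 lower after quantile normalization. Hnrnpf was higher in 2 of its 5 sequences. Pecam1 encodes an endothelial adhesion molecule, Igkv4-72 is an immunoglobulin light chain segment, Bmt2 encodes a regulator of mTORC1 signalling, Zfp979 a zinc finger protein and Banf2 a relative of the chromatin protein Banf1. Both 4930515G13Rik and 1700024B05Rik are named only by their clones.

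At Nlrp4e the centred log2 ratio in experiments 1 to 3 was 2.90, 2.94 and 1.14 with Plakoglobin against -0.12, -1.46 and -2.61 with β-catenin. The groups did not overlap, and the β-catenin values were below the array median in all 3 experiments. The mean paired difference was 3.72 ± 0.47 (SE, n = 3 pairs; limma's unadjusted p 0.000622, adjusted 0.89). Its other sequence on the array had a mean difference of only 0.16, so the large value belongs to 1 of its 2 sequences. The authors' Plakoglobin peaks under this gene lay 24 to 39 bases after the listed start, with q-values of 0.00214, 0.0171 and 0.0347 on arrays 1 to 3. Pramel39 had 3.24, 1.68 and 3.35 with Plakoglobin against -0.20, -1.01 and -1.63 with β-catenin, again without overlap. Its difference was 3.70 ± 1.03 (SE, n = 3 pairs), and both of its sequences were higher, with means of 3.60 and 3.70. Xmr had 2.44, 1.34 and 1.72 with Plakoglobin against -0.44, -2.06 and -0.89 with β-catenin. All 4 Xmr sequences and all 6 Gm4836 sequences were higher, with means of 2.61 to 2.96 and 1.83 to 3.05. The peak lists place both genes at the same peaks on chromosome X, so they are not separate observations, and near-identical copies cannot be told apart by hybridisation.

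Other leading higher promoters had β-catenin values near the array median. Bmt2 had 3.30, 1.85 and 2.42 with Plakoglobin against 0.17, 0.15 and 0.25 with β-catenin. Gpatch1 had 1.68, 2.25 and 2.81 against 0.01, -0.13 and 0.01. Banf2 had 1.64, 1.36 and 2.23 against -0.01, -0.19 and -0.08. In these 3 genes the largest β-catenin value was 0.25 and every Plakoglobin value was above 1. Each also had a deposited Plakoglobin peak on all 3 arrays and a β-catenin peak on none. These peaks were matched by gene record and not by position. The 3 Gpatch1 peaks overlapped. The Bmt2 peak of array 2 did not overlap that of array 3. The Banf2 peak of array 2 (q-value 0.167) overlapped neither of the other Banf2 peaks. Isy1, whose window is shown above, had 3.13, 1.09 and 1.49 against 0.09, -0.70 and -0.04. Zfp979 had 2.83, 0.90 and 1.54 with Plakoglobin but also 0.94 on β-catenin array 1, which was above Plakoglobin array 2, and the authors listed a β-catenin peak there on that array. The difference of Zfp979 was nonetheless much the same in each experiment, at 1.89, 1.83 and 1.85. The smallest standard error among the 15 leading higher genes was that of 1700024B05Rik, with 0.45, 0.95 and 1.63 against -1.87, -0.89 and -1.09 and a difference of 2.29 ± 0.20 (SE, n = 3 pairs; limma's unadjusted p 0.000116, adjusted 0.89). It had no deposited peak, and all 3 β-catenin values were below the median by 0.89 or more.

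Lower promoters had smaller differences, and for many of them 1 β-catenin array gave most of the size. Among the 15 genes leading this set were enzymes and membrane proteins of unrelated function and 2 olfactory receptors. Clca2, of the calcium-activated chloride channel regulator family, had -0.14, -0.35 and 0.04 with Plakoglobin against 1.97, 0.44 and 1.12 with β-catenin. Its groups did not overlap, its difference was -1.32 ± 0.50 (SE, n = 3 pairs), and the authors listed a β-catenin peak on arrays 1 and 3. Yme1l1, a protease of the inner mitochondrial membrane, had -0.26, -0.20 and -0.23 against 0.51, 0.41 and 1.48. Its Plakoglobin values lay within 0.06 of each other and all below the median. The second Yme1l1 sequence went the other way, with a mean difference of 0.49, so the gene as a whole had no single direction. Mest, an imprinted gene, had -0.17, -0.16 and -0.19 with Plakoglobin against 1.49, 0.69 and 0.18 with β-catenin.

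The third β-catenin array stood out at several lower promoters. Olfr676, an olfactory receptor gene, had 0.38, 0.68 and 3.96 on β-catenin arrays 1 to 3, Cnih1, which encodes a receptor for export from the endoplasmic reticulum, had 0.33, 0.77 and 4.05, and Tbck, a TBC-domain kinase gene, had 0.12, 0.02 and 3.83. Braf, the kinase that activates MEK in growth factor signalling, had -0.58, -0.34 and 0.11 with Plakoglobin against -0.17, 0.12 and 3.45 with β-catenin. Its differences were -0.41, -0.46 and -3.34, and its Plakoglobin array 3 was above its β-catenin array 1. Apon, an apolipoprotein gene, had 2.54 on β-catenin array 3 but also 1.14 on Plakoglobin array 3, where the authors listed a peak for each protein. Other lower promoters had small differences of similar size in all 3 experiments. Dmxl1 had differences of -0.46, -0.48 and -0.40 (-0.45 ± 0.10, SE, n = 3 pairs), Olfr776 had -0.50, -0.38 and -0.65, and Rdh16f2, of the retinol dehydrogenase family, had -0.51, -0.49 and -0.82. Dmxl1 and Olfr776 had no deposited peak of either protein. Tbck and Dmxl1 were lower in 1 of their 2 sequences each, and Braf in 2 of 3.

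**Figure D2:**
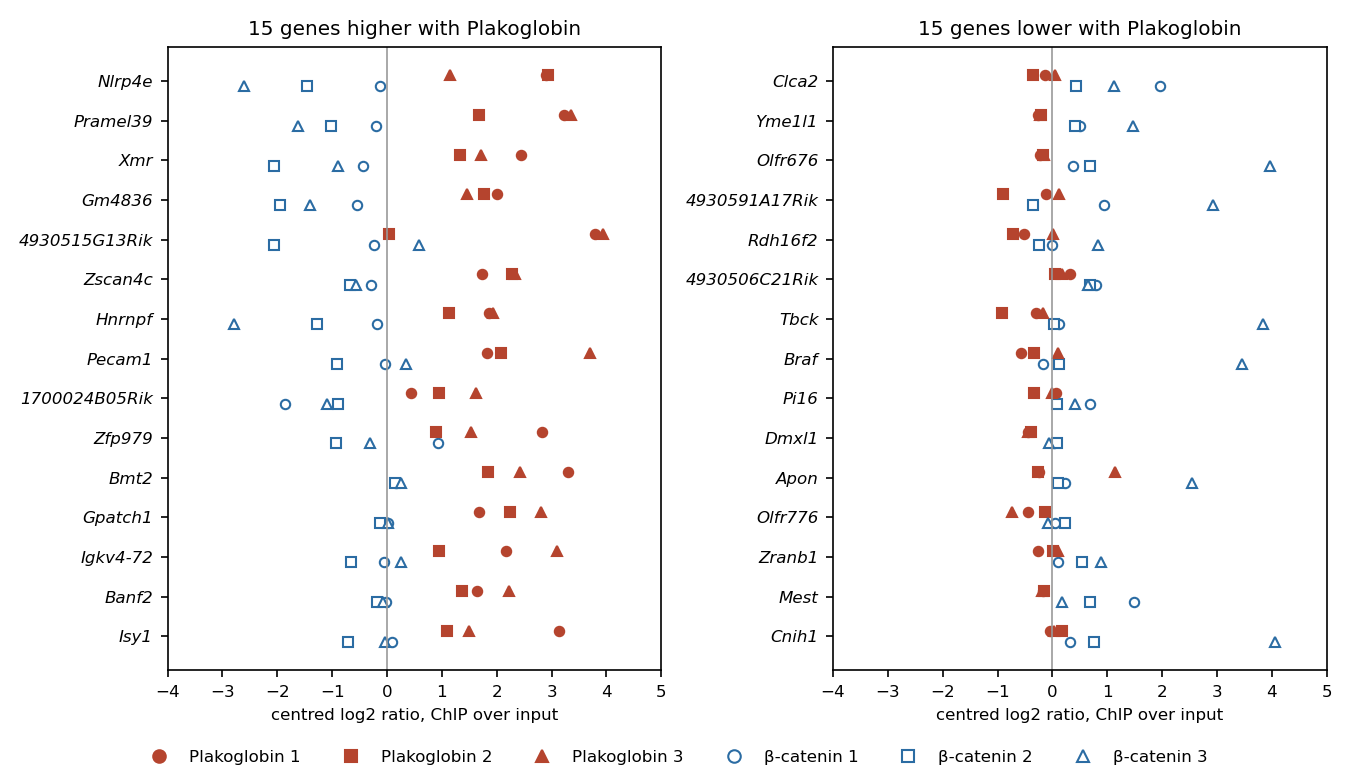
Each row is a gene and each symbol 1 array, with the centred log2 ratio of ChIP over input on the horizontal axis; filled symbols are Plakoglobin, open symbols β-catenin, and the shape gives the experiment number. The left panel shows the 15 leading higher genes, where Plakoglobin symbols mostly lie above 1, and the right panel the 15 leading lower genes, where Plakoglobin symbols lie near or below 0, except for 1.14 at Apon, and the third β-catenin array reaches 3.96 at Olfr676 and 4.05 at Cnih1.

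The authors' peaks, called per array on these same measurements and so not independent of the differences, followed the direction of the sets. Plakoglobin peaks on at least 2 arrays were listed at 13.9% of the 2767 higher promoters and at 0.467% of the 3212 lower promoters, against 4.32% of all promoters. Of the 118 promoters that were at least 0.5 higher in each experiment, 84 had such peaks and 47 had a Plakoglobin peak on all 3 arrays. Because peaks were assigned by gene record, 1 peak counts for every sequence of a record that has several. Peaks on several arrays also need not lie at the same place: the strongest Xmr peaks of arrays 1 to 3 lay at different places on chromosome X. For β-catenin, peaks on at least 2 arrays were listed at 1.62% of the lower promoters, 0.108% of the higher promoters and 0.706% of all. Sequences whose accession has several sequences on the array made up 33.9% of the 118 and 16.3% of all promoters.

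Gene families are described below by how many of their promoters fell in the higher and in the lower set, beside 10.6% and 12.3% of all promoters. The sign rule used these same differences, so the shares are descriptions and nothing is tested or concluded from them. The median of the mean difference was 0.01 over all promoters. In families of near-identical genes the members share sequence and are not independent. Of the genes named below, H2-T24, Nectin2, Notum, Pcdhb16 and Rps18 had the shared sign in 1 of 2 sequences each. Which side held more promoters was counted again with the median over probes and under 3 other scalings, and groups in which a lead of 3 or more promoters turned or evened out are named as such.

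Germ-line and X-linked multi-copy genes had more promoters in the higher than in the lower set. Of 122 such promoters 32 were higher (26.2%) and 9 lower (7.38%), and 16 were at least 0.25 higher in each experiment, beside 1.15% of all promoters. Plakoglobin peaks on at least 2 arrays were credited to 53, where copies under the same gene record share their peaks. The median of their mean difference was 0.37, but the median difference was 0.08, 1.03 and -0.03 in experiments 1 to 3. The size thus lay mainly in experiment 2. Within the PRAME-like family the direction differed between members. Pramel48, on chromosome 5, was higher with 1.99, 2.31 and 1.01 in experiments 1 to 3. Pramel32 and Pramel25, both on chromosome 4, were lower, with -0.30, -0.51 and -1.43 and with -0.24, -0.63 and -3.31. Zinc finger genes of the Zfp series were near the background shares, with 36 of 364 higher (9.89%) and 38 lower (10.4%). After Zfp979, on chromosome 4, the next higher members by their smallest difference lie on chromosome 17: Zfp119b had 0.55, 2.14 and 0.50, and Zfp959 had 0.70, 1.79 and 0.41.

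Chemosensory receptors had more promoters in the lower than in the higher set. Of 988 olfactory receptor promoters 192 were lower (19.4%) and 62 higher (6.28%), with a median mean difference of -0.03. Their RefSeq windows, found for 84.2% of them, had a median GC content of 35%, against 58% over all promoters with a window. Most of these differences were small: 9 lower and 9 higher of the 988 reached 0.25 in all 3 experiments, beside 0.481% lower and 1.15% higher of all promoters. On the higher side, Olfr1328 had 2.02, 1.36 and 1.27, with no overlap between its Plakoglobin values (1.93, 0.59 and 0.70) and its β-catenin values (-0.09, -0.76 and -0.57). Vomeronasal receptors, which detect pheromones, had 21 of 145 lower (14.5%) and 12 higher (8.28%), although scaling by the median absolute deviation turned this to 16 lower and 22 higher and no centring gave 17 of each. Their median mean difference was 0.04, above 0 despite the larger lower count. The lower Vmn1r45 (-0.36, -0.36 and -0.92), Vmn1r19 (-0.37, -0.30 and -0.69) and Vmn1r50 (-0.69, -0.24 and -0.36) all lie on chromosome 6. The second Vmn1r50 sequence had a mean difference of 0.67, so that gene as a whole had no single direction. Vmn1r69, on chromosome 7, was higher with 1.32, 1.06 and 1.19 and had Plakoglobin peaks on 2 arrays. Taste and trace amine receptors had 8 of 34 lower and 1 higher, Tas2r108, a bitter receptor gene, with 0.05, 1.13 and 2.65.

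Natural killer and C-type lectin receptors, many of them in a gene cluster on chromosome 6, had 14 of 42 lower (33.3%) and 1 higher (2.38%), with a median of -0.07. With the median over probes 7 were lower and 2 higher. None of the 42 reached 0.25 in all 3 experiments. Of all promoters only 0.481% did so on the lower side and 1.15% on the higher. Klrk1, which encodes the activating receptor NKG2D, had -0.19, -0.16 and -3.26, and Clec4a4, a C-type lectin receptor gene, had -0.20, -0.58 and -0.43. Klrk1 and Klri2, a lectin-like receptor gene, had values of 2.95 and 1.53 on β-catenin array 3, while the highest value of Clec4a4 was 0.27. Clec4f, a Kupffer cell lectin gene, was the 1 higher member, with 0.10, 0.01 and 3.50. Other immune groups differed from each other. MHC class I and II genes had 4 of 30 higher and 5 lower, and the TNF family and Toll-like receptors had 3 of 38 higher and 5 lower. Interleukins and their receptors had 15 of 75 higher (20%) and 10 lower (13.3%), and chemokines and their receptors had 10 of 52 higher and 7 lower, or 6 of each with the median over probes. Il4ra, a chain of the interleukin 4 receptor, had differences of 1.81, 0.36 and 4.32, and Il12rb1, a chain of the interleukin 12 receptor, had 1.26, 1.91 and 0.24. Ccr3, the eotaxin receptor gene, was lower with -0.18, -1.73 and -4.80. Among nonclassical MHC class I genes, H2-T22 (-0.26, -0.95 and -0.98) and H2-T10 (-0.20, -0.56 and -0.95) were lower, while H2-T24 (0.05, 1.14 and 3.97) was higher.

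Serpins, mostly protease inhibitors, had 9 of 47 promoters higher (19.1%) and 4 lower (8.51%). By their smallest difference, Serpina1a and Serpina1e of chromosome 12 led the higher serpins. Serpinb9f of chromosome 13 (2.72, 0.28 and 0.19) came next, before Serpina6 of chromosome 12. Serpina1a, an α1-antitrypsin gene, had 0.85, 2.14 and 3.10 with Plakoglobin against -0.08, -1.16 and -0.18 with β-catenin, and both of its sequences were higher. Serpina1e had differences of 0.49, 3.86 and 2.93, and Serpina6, which encodes the corticosteroid carrier of blood, had 2.20, 3.04 and 0.10. The 2 α1-antitrypsin genes are close copies, and hybridisation may not tell them apart. Among the leading cytochrome P450 genes of each direction, Cyp2c37 (-0.34, -0.48 and -0.73), Cyp2c50 (-0.30, -0.31 and -0.37) and Cyp2c54 (-0.18, -0.50 and -0.69) were lower. Cyp3a44 (1.07, 3.46 and 0.66) and Cyp3a25 (0.70, 3.35 and 0.40) were higher. Cyp3a44 was higher in 1 of its 3 sequences, whose mean differences ranged from -0.50 to 1.73. Over the family 7 of 73 were higher and 11 lower, which turned to 11 and 9 with the median over probes and evened out at 10 of each after scaling by the median absolute deviation.

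Several growth-related groups had more promoters in the higher than in the lower set, but not all. Cyclins and cyclin-dependent kinases had 5 of 39 higher and 5 lower, and proteasome genes had 5 of 40 higher and 6 lower. Replication and mitosis genes had 19 of 107 higher (17.8%) and 9 lower (8.41%), but 14 of each after quantile normalization. Cdc6, which loads the replicative helicase, had 0.33, 0.53 and 1.48, Mcm3, a subunit of that helicase, had 0.33, 0.56 and 1.02, and Cdc5l, a splicing and cell cycle factor, had 1.99, 1.78 and 0.54. Cytosolic ribosomal protein genes had 9 of 69 higher and 3 lower, and mitochondrial ribosomal protein genes had 10 of 67 higher and 4 lower. Rpl24 had 0.20, 1.73 and 0.30, whereas Rps18 owed its mean to experiment 1, with 3.84, 0.11 and 0.16. Genes listed as Myc targets had 6 of 23 higher and 1 lower, with a median of 0.06, and 2 of each after quantile normalization. Polr1b, a subunit of RNA polymerase I, had 0.36, 0.89 and 0.23, and the 1 lower gene, Npm1, a nucleolar chaperone, had -0.09, -0.06 and -2.35. None of the 23 reached 0.25 in all 3 experiments, but of all promoters only 1.15% did so on the higher side and 0.481% on the lower. Histone genes had more lower promoters, with 4 of 73 higher (5.48%) and 12 lower (16.4%), although 23 of the 73 had Plakoglobin peaks on at least 2 arrays. The median of their mean difference was 0.08, on the other side of 0 from the lean of the counts. Of the histone genes H4c12 had the largest smallest difference, with 2.17, 1.92 and 0.80 with Plakoglobin against 0.06, -0.06 and -0.08 with β-catenin.

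**Figure D3:**
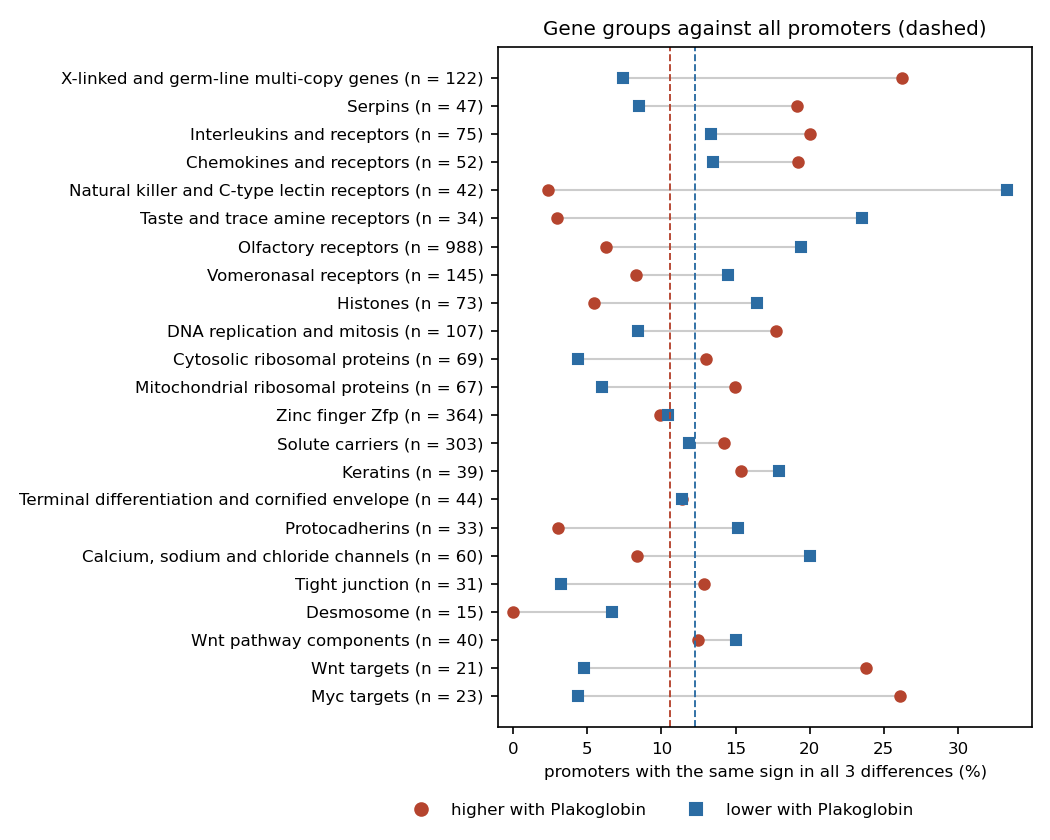
For 23 gene groups the share of promoters that were higher (circles) and lower (squares) with Plakoglobin in all 3 experiments is shown in percent, with the number of promoters in brackets; dashed lines mark the shares over all 26200 promoters, 10.6% and 12.3%. Multi-copy germ-line genes reach 26.2% on the higher side and natural killer and C-type lectin receptors 33.3% on the lower side, while terminal differentiation genes lie near both lines. Calcium, sodium and chloride channels had 5 higher and 12 lower promoters, which turned to 10 higher and 8 lower without centring.

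Wnt genes, through which the signalling function of β-catenin is usually read, did not share 1 direction. Genes listed as Wnt targets had 5 of 21 promoters higher and 1 lower, with a median of 0.09, and quantile normalization gave 4 of each. None of the 21 reached 0.25 in each experiment, a size reached by only 1.15% of all promoters on the higher side and 0.481% on the lower. Ccnd1, which encodes cyclin D1, had -0.04, -0.99 and 1.57 with Plakoglobin against -0.17, -1.60 and 0.07 with β-catenin. Its groups overlapped, since both antibodies were low in experiment 2, and its paired difference was 0.75 ± 0.28 (SE, n = 3 pairs; limma's unadjusted p 0.0463, adjusted 0.89). Both Ccnd1 sequences were higher, with means of 0.57 and 0.75. Notum, which encodes a secreted Wnt inhibitor, had differences of 0.90, 0.29 and 0.08. Axin2, a feedback inhibitor and common Wnt reporter gene, had 0.10, -0.06 and -0.002, all within 0.11 of 0.

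Among Wnt receptors, 4 of 9 Frizzled promoters were higher and 1 lower. Fzd1 had 2.38, -0.25 and 0.38 with Plakoglobin against -0.17, -0.37 and 0.10 with β-catenin, so nearly all of its difference came from experiment 1. Fzd10 (0.18, 0.53 and 0.16) and Fzd8 (0.17, 0.47 and 0.10) were higher by less, and Fzd3 was lower with -0.26, -0.32 and -0.004. The other 4 Frizzled promoters had mixed signs, and the median over all 9 was -0.13. Wnt pathway components had 5 of 40 higher and 6 lower, near the background shares. The kinase gene Csnk1e had 0.93, 1.78 and 0.07, while the destruction complex gene Apc (-0.05, -0.51 and -0.18), the co-receptor gene Lrp5 (-0.18, -0.29 and -0.09) and the inhibitor gene Dkk2 (-0.10, -0.49 and -0.12) were lower. Apc was lower in 1 of its 3 sequences.

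Most junction promoters had no shared sign, as was the case for 20221 of all 26200 promoters. Of 15 desmosome promoters 0 were higher and 1 was lower: Perp, a desmosome-associated gene of stratified epithelia, with -0.04, -0.37 and -0.02. Adherens junction and catenin genes, evened out at 2 of each without centring, had 1 of 17 higher, Ctnnd1 (p120-catenin) with 0.09, 0.004 and 0.02 in 1 of its 2 sequences, and 3 lower, of which Nectin2 had -0.30, -0.92 and -0.09 and Zyx, a focal adhesion and junction protein gene, had -0.87, -0.30 and -0.04. Tight junction genes had 4 of 31 higher and 1 lower. Cldn7, a claudin gene, had 0.92, 2.52 and 0.12 with Plakoglobin against -0.01, -0.18 and 0.08 with β-catenin, and Ocln, which encodes occludin, was lower with -0.14, -0.28 and -0.30. The β-protocadherins Pcdhb5 (-0.39, -0.36 and -0.45) and Pcdhb16 (-0.23, -0.70 and -0.73) were lower, in a protocadherin group with 5 of 33 lower and 1 higher. Jup itself had 0.07, -0.34 and 1.89, and Ctnnb1 had 0.04, 0.37 and -0.15.

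Keratin and terminal differentiation genes divided about evenly between the sets. Terminal differentiation and cornified envelope genes had 5 of 44 higher and 5 lower, and keratins had 6 of 39 higher and 7 lower. Sprr1a, a cornified envelope precursor, had 0.04, 1.93 and 1.07 with Plakoglobin against -0.05, -0.41 and 0.24 with β-catenin. Casp14, the caspase of cornification, had 0.03, 3.98 and 1.09 as differences, with little in experiment 1. Sprr4 (-0.27, -0.27 and -0.95) and Lce1h (-0.28, -0.16 and -0.66), also cornified envelope genes, were lower. Epidermal transcription factors had 2 of 24 higher and 5 lower, or 3 of each with the median over probes. Trp63, the p63 regulator of basal keratinocytes, had -0.14, -0.46 and -0.90, Klf4, a factor of barrier formation, had -0.13, -0.32 and -0.11, and Dlx3, a differentiation factor, had -0.01, -0.63 and -0.74, while Ovol2, an epithelial repressor of mesenchymal genes, was higher with 2.05, 0.18 and 0.32. Krt10, a keratin of suprabasal cells, had -1.83, -0.18 and -0.34, with 1.74 on β-catenin array 1 where the authors listed a peak. Krt5 (1.99, -0.49 and 0.18) and Krt14 (0.70, -0.65 and 0.03), the keratins of basal cells, had mixed signs.

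**Figure D4:**
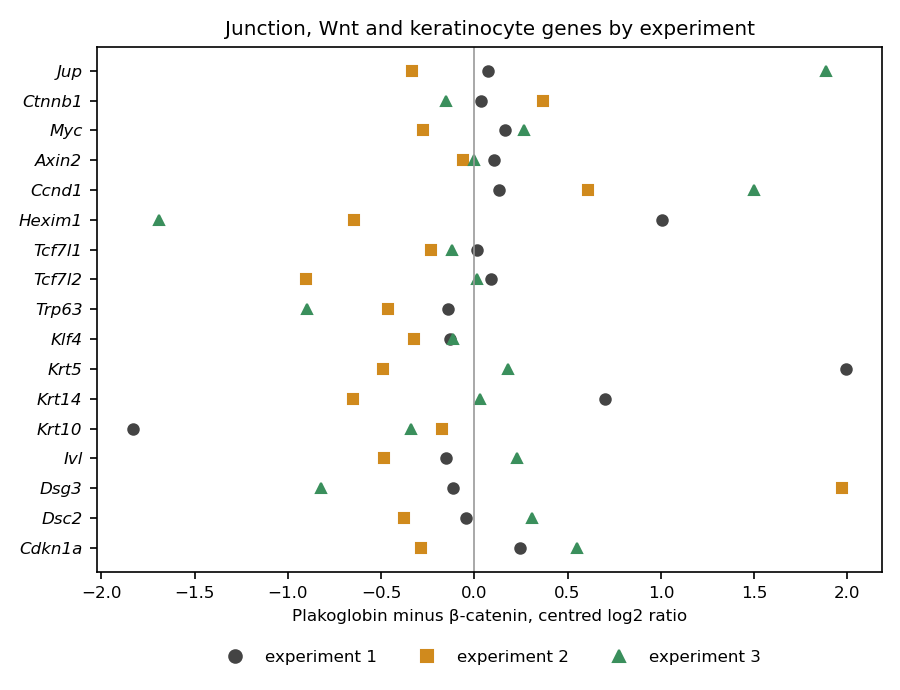
For 17 genes of junctions, Wnt signalling and keratinocyte identity, the paired difference (Plakoglobin minus β-catenin, centred log2 ratio, horizontal) is shown for experiments 1 (circles), 2 (squares) and 3 (triangles). Ccnd1 lies above 0 in all 3 experiments, Trp63, Klf4 and Krt10 lie below 0 in all 3, and the other 13 genes have both signs.

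Of the 17 such genes with a promoter on the array, 4 therefore had the same sign in all 3 experiments. This share is close to the 22.8% of all promoters. Myc, which has been linked to Plakoglobin in these cells, had 0.16, -0.28 and 0.27. Hexim1, an inhibitor of transcription elongation, had 1.01, -0.64 and -1.69, with 1.14 on Plakoglobin array 1 and 1.77 on β-catenin array 3. Dsg3, a desmosomal cadherin gene, had -0.11, 1.97 and -0.82. Krt1, Dsc3 and Lef1 were not analysed here. Promoters of genes that mark other cells of skin were described in the same way: 0 of 9 fibroblast marker promoters were higher and 4 lower (0 of each with the median over probes), 1 of 9 melanocyte marker promoters was higher and 2 lower, 1 of 12 immune cell marker promoters was higher and 4 lower, and 0 of 6 Merkel cell marker promoters were higher and 1 lower. Pdgfra, a fibroblast receptor gene, had -0.20, -0.25 and -0.23. These ratios do not measure how many such cells were present.

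A check of base composition over the sets was void, because RefSeq windows were found for 47.9% of the higher and 47.2% of the lower promoters, below the 80% required. Over the 12670 promoters that have a window, GC content had a rank correlation with the difference that changed sign between experiments (Spearman's rho 0.23 in experiment 1, -0.17 in experiment 2 and 0.02 in experiment 3, as a description over promoters of the same arrays). Among the 3216 windows with the lowest GC content (up to 49.7%) 15.0% were lower and 8.71% higher, against 10.4% to 11.3% lower and 9.70% to 12.1% higher in the other 3 bins of similar size. The part of base composition in the counts of the gene groups, olfactory receptors among them, was not tested. The share of TCF/LEF matches in the sets was not reported, since the windows cover too few promoters.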

How the data were processed

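Members and gene lists were chosen with earlier results of these data known. The deposited tables hold, per promoter sequence, the mean, median and SD over probes of a log2 ratio of ChIP over input, per the file headers, and the mean was used. No source used here states how probe values were normalized. The deposited peak lists give, per array, a score, which is the authors' own value and was not used here, and a q-value of up to 0.199, per the file headers. Of 26275 sequences, 75 had no value. RefSeq's gene table (GRCm38.p6, names only) named 12527 by accession, 1710 by symbol and 1671 by synonym, 798 kept the file's name, and 9494 entered no gene list. Another 2271 could be named through the peak lists, for display only.

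Each array was centred on its median, and differences were taken within experiment numbers, which the file headers state. Same-numbered arrays deviated together from their antibody's mean (r = 0.203, 0.235 and 0.218 over promoters), so the number was kept as a block. The labels do not say that arrays came from separate cultures, so errors measure the spread between arrays, which may be technical, and their number limits the precision. A two-sided paired model (lmFit and trended eBayes of limma 3.58.1, R 4.3.3) was fitted to all 26200 promoters with Benjamini-Hochberg adjustment, after a test on simulated data. Named genes are the 15 per direction with the largest smallest difference, up to 4 per list and direction by the same measure, and 20 fixed genes. For each the sequence with the largest smallest difference is given. Dars and Bcs1l are named as the promoters at the sign threshold, and genes in the closing section were chosen after their values were seen. Python 3.11.15, pandas 2.3.3, numpy 2.4.6 and matplotlib 3.10.9 were used. Alternatives were the median over probes, no centring, quantile normalization, scaling by the median absolute deviation, no replicate block, no trend, robust eBayes, accessions with a single sequence, larger sizes, and leaving out each experiment.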

Additional observations from a re-analysis of the deposited data

How the results depend on the processing

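Under the alternatives fitted to all 3 experiments, no promoter passed the adjusted threshold in limma, with lowest adjusted p-values from 0.256 to 1. Leaving out 1 experiment gave between 1 and 37 promoters, the most without experiment 3 (1 without experiment 1, 2 without experiment 2). Counts with the same sign moved most with the size asked for: 300 and 118 higher, and 126 and 5 lower, at 0.25 and 0.5. Without the replicate block, when all 3 Plakoglobin arrays had to exceed or fall below all 3 β-catenin arrays, 673 were higher and 670 lower, and with a gap of at least 0.5 the counts were 55 and 3. Over 2 experiments only, 5685 to 6533 were higher and 6385 to 7122 lower. Without centring, 2067 were lower and 3753 higher, which turns the larger side. Counts at 0.5 in each experiment were added after seeing the data: 78 higher and 1 lower with the median over probes, 27 lower after quantile normalization, 77 higher among single-sequence accessions, and 321 to 832 higher and 60 to 291 lower without 1 experiment. At an unadjusted p under 0.05, lower promoters numbered 66 without centring, 188 after quantile normalization, 42 without the replicate block, 51 without a trend, and 150 to 610 without 1 experiment; higher promoters numbered 330 after scaling and 184 to 996 without 1 experiment. Of 160 genes examined, 147 had the same sign in all 3 experiments, so leaving out an experiment could not turn them. The median over probes and the centring and scaling alternatives turned the sign of the mean difference for 3 of these 147. Whether each gene kept the same sign in all 3 differences was not counted. A promoter can leave its set without such a turn, and lower fibroblast marker promoters went from 4 to 0 with the median over probes. Of the 13 with mixed signs, 12 turned under at least 1 alternative. The direction turned with the median over probes for Zranb1 (0.0727), Ctnnb1 (-0.026), Myc (-0.134), Krt14 (-0.02), Apc (0.08) and Rnf43 (-0.0103). After quantile normalization it turned for Ctnnb1 (-0.0399), Krt14 (-0.00544) and Dsc2 (0.0913), and after scaling for Ctnnb1 (-0.00792), Dsg3 (-0.0925) and Dsc2 (0.0968). Leaving out each experiment in turn gave ranges across 0 for Jup (-0.131 to 0.981), Ctnnb1 (-0.0575 to 0.201), Myc (-0.056 to 0.215), Axin2 (-0.0325 to 0.0515), Hexim1 (-1.17 to 0.182), Krt5 (-0.154 to 1.09), Krt14 (-0.31 to 0.364), Ivl (-0.318 to 0.039), Dsg3 (-0.467 to 0.931), Dsc2 (-0.21 to 0.131), Cdkn1a (-0.0225 to 0.398) and Tcf7l2 (-0.445 to 0.052). The cause was not tested.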

Other observations

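With experiments 1 and 2 alone, limma's paired fit put 37 promoters past the adjusted threshold, all of them higher with Plakoglobin, of which 13 had the same sign in all 3 experiments, sequences of 1700024B05Rik, Xmr and Gm4836 among them, and 24 had a difference below 0 in experiment 3. Over the 37 the median difference was 3.14 over the remaining experiments and -0.41 in experiment 3. At A530032D15Rik, a clone-named gene, the differences were 3.04, 3.15 and -1.38 in experiments 1 to 3, with 2.60 on β-catenin array 3. Flg, which encodes filaggrin, a protein of the cornified layer, had 2.03, 1.56 and -2.21, with 2.96 on β-catenin array 3 against 0.75 on Plakoglobin array 3. Both sequences of Gm10925 were among the 37, with differences of 5.62, 2.86 and -0.37 and of 5.85, 2.87 and -0.37. These genes were chosen after their values were seen, and why the experiments differ there was not tested.

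Some single transporter and regulator genes outside the leading 15, chosen after their values were seen, were higher in all 3 experiments. They had high Plakoglobin values on 1 or 2 arrays. Solute carriers as a group were near the background shares, with 43 of 303 higher (14.2%) and 36 lower (11.9%). After quantile normalization 37 were higher and 42 lower. Smarcc2, a subunit of the SWI/SNF chromatin remodeller, had 3.27, 0.30 and 3.64 with Plakoglobin against -0.04, -0.42 and 0.12 with β-catenin. Eif3f, a translation initiation factor subunit, had 3.26, 0.31 and 0.73 against -0.12, -0.74 and -0.11. Both had a Plakoglobin peak listed on all 3 arrays, though such peaks need not lie at the same place. Slc12a3, a sodium and chloride cotransporter of kidney, had 3.27, 2.88 and 0.26 against 0.19, 0.21 and -0.06, and Slc2a3, a glucose transporter, had 2.49, 0.39 and 1.26 against 0.05, -0.52 and 0.13. On the lower side, Sult1e1, an oestrogen sulfotransferase, had -0.54, 0.02 and -0.95 with Plakoglobin against -0.19, 1.30 and 1.82 with β-catenin, and Srsf11, a splicing factor, had -0.35, -0.24 and -0.39 against -0.10, 1.57 and 1.29 in 1 of its 2 sequences. In both genes 2 of the β-catenin arrays were above 1 and carried a listed peak.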
